A study of Homo sapiens with 6 samples.

Results

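The suppressors of cytokine signaling are a family of 8 genes, SOCS1 to SOCS7 and CISH, and were followed here in SUM-LM1 breast cancer cells given activin B. All probe sets that the platform annotation assigns to these symbols were taken, which gave 25 of the 54613 probe sets analysed, or 8 of 19775 named genes. SOCS1 and SOCS3 had 4 each, SOCS4 had 2 and the remaining 5 genes had 3 each. The members were chosen by gene name, but the family was selected on the lower signal of SOCS1 in activin B, already known from these same arrays. The differences between groups in its members are therefore given as a description, with standard errors and intervals, and no P value of a member is printed. Where members are counted or called at a P threshold, the count is description too and not a test of the family.

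SUM-LM1 is a derivative of the human breast cancer line SUM159 that forms lung metastases. Cells were seeded at 12500 per ml on ultra-low attachment plates in HuMEC medium with 0.1% BSA, and were given recombinant human activin B at 50 ng/ml or the BSA/PBS vehicle for 6 h. Activin B, a TGF-beta family ligand, is made of a pair of inhibin beta B subunits. Each group held 3 biological replicates of this 1 cell line, hybridized to Affymetrix Human Genome U133 Plus 2.0 arrays. Values are log2 signals after robust multiarray averaging (RMA), which equalizes probe intensities between arrays before combining them into probe sets. The array medians still ran from 6.6895 to 6.6989. Pairs of arrays correlated between 0.9935 and 0.9961 over all probe sets. The label was set beside marker lists, each gene read by its brightest set and compared with the median of 6.69 over all probe sets. Taking the brightest set favours a place above the median, so the lists cannot settle the cell type. All 8 genes listed for giving signal in a basal or claudin-low line lay above that median. Their averages in activin B lay between 7.35 for KRT5 and 13.9 for VIM (vimentin). This list was not limited to genes particular to such lines, and KRT18 is one that is not. Of 5 luminal or HER2 markers 3 lay above it: ERBB2, GATA3 and ESR1 averaged 8.07, 7.43 and 6.84 in activin B, whereas FOXA1 and PGR averaged 6.53 and 6.43. Of 4 endothelial markers 1 lay above it, PECAM1 at 7.65, and of 4 leukocyte markers 1, CD3E at 6.95, while CDH5 and PTPRC averaged 6.10 and 6.31, under the lower quartile of 6.37. Of 4 fibroblast markers 3 lay above it, with COL1A1 at 11.6 and COL1A2, the one below, at 6.56. Whether cells of other types were present was not tested. None of the 25 markers looked at passed at an adjusted P under 0.05 (limma), and 2 were higher and 3 lower at an unadjusted P under 0.05.

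SOCS proteins are brakes on cytokine receptors. Receptor-bound JAK kinases activate STAT transcription factors, STATs switch on several SOCS genes, and the SOCS proteins then block the receptor or the kinase, closing a feedback loop. Each carries an SH2 domain, which binds phosphorylated tyrosines, and a SOCS box, which recruits elongins and the CUL5 ubiquitin ligase so that bound proteins are degraded. SOCS1 and SOCS3 can also inhibit JAK kinases directly, and SOCS1 is best known for restraining interferon signaling.

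The stretches of 250 bases before the RefSeq start sites of SOCS1 and CISH (GRCh38.p14) are shown because SOCS1 was the member with a lower signal and CISH is a textbook STAT5 target whose signal was not called. The SOCS1 stretch lies at chr16:11256205-11256454 and that of CISH at chr3:50611775-50612024, both on the minus strand and written 5′ to 3′ in the direction of transcription. Capitals mark exact matches to a STAT motif (TTCNNNGAA) or to the core motif of interferon regulatory factors (AANNGAAA), searched on both strands.
SOCS1: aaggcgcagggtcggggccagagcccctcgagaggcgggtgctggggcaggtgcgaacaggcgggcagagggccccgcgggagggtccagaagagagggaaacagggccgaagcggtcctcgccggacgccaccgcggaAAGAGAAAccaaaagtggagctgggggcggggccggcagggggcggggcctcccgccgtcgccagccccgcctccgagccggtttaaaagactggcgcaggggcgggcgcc
CISH: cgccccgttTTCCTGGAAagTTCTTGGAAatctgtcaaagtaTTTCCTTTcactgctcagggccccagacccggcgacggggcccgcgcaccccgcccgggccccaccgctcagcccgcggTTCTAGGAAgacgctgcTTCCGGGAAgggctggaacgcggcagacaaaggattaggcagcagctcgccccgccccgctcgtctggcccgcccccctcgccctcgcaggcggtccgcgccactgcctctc
The interferon-type motif stood once before SOCS1, beginning 111 bases before the start, and no STAT motif was found there. CISH held 4 STAT motifs, beginning 241, 230, 129 and 112 bases before the start, and 1 interferon-type motif, read from the other strand. Of 35116 promoter stretches of the same length, 6.57% held the STAT motif and 20.3% the interferon-type motif. Neither motif was found in the same window of SOCS3, SOCS4 or SOCS6. No stretch was available for SOCS2, SOCS5 and SOCS7, so these genes were not searched for any motif. Motifs bound by SMAD proteins, which carry activin and BMP signals, were searched as well. The GC-rich motif GGCGCC, present in 16.4% of all stretches, occurred once before each of SOCS1, SOCS3, SOCS4 and SOCS6, and CAGAC, present in 38.0%, occurred 3 times before CISH, once before SOCS3 and not before SOCS1, SOCS4 or SOCS6. None of these matches overlapped a capital stretch. The matches describe the sequence only, and binding was not measured. GC content was 74% for SOCS1, 62.8% for SOCS3, 70% for SOCS4, 82% for SOCS6 and 68.8% for CISH. The shares over all stretches were not matched for GC content.

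SOCS1 transcripts gave a lower signal after 6 h of activin B, and one probe set carried most of that difference. This set, 210001_s_at, read 7.39, 7.50 and 7.49 in the 3 activin B arrays, against 8.20, 8.08 and 8.19 in the 3 vehicle arrays. Every activin B array lay below every vehicle array, and the gap between the groups was several times the spread within either. The means were 7.46 ± 0.06 in activin B and 8.15 ± 0.07 in vehicle (SD, n = 3 each), a log2 change of -0.70 ± 0.07 (SE; 95% confidence interval -0.83 to -0.56), or 1.62-fold lower. Of all 54613 probe sets, 1 had a larger fall. In RNA from whole cultures, fewer SOCS1-expressing cells and less SOCS1 RNA per cell cannot be told apart.

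The other 3 probe sets of SOCS1 moved less or not at all. The next one, 209999_x_at, read 7.22, 7.04 and 7.23 in activin B, against 7.38, 7.32 and 7.45 in vehicle. Its groups did not overlap either, with a log2 change of -0.22 ± 0.07 (SE), in the same direction as 210001_s_at but smaller. The suffix _x_at marks sets with probes that can cross-hybridize to other transcripts, and _s_at marks sets whose probes match several transcripts. Set 213337_s_at read 6.91, 6.74 and 6.88 in activin B, against 6.80, 6.95 and 6.88 in vehicle, and the groups overlapped (log2 change -0.04 ± 0.07, SE). Set 210000_s_at read 6.27, 6.33 and 6.27 in activin B, against 6.28, 6.28 and 6.21 in vehicle (log2 change 0.03 ± 0.06, SE). This last set was near the floor of the arrays, its mean of 6.27 lying under the lower quartile of all signals. The 4 log2 changes of SOCS1 thus spanned 0.73, the widest span of any gene in the family, against 0.03 to 0.22 for the other 7 genes. When the 4 sets were averaged, SOCS1 was 6.94 ± 0.03 in activin B and 7.17 ± 0.01 in vehicle (SD, n = 3 each), a log2 change of -0.23 ± 0.04 (SE), and was no longer called. Which of the sets reads the SOCS1 transcript best was not tested.

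**Figure D1:**
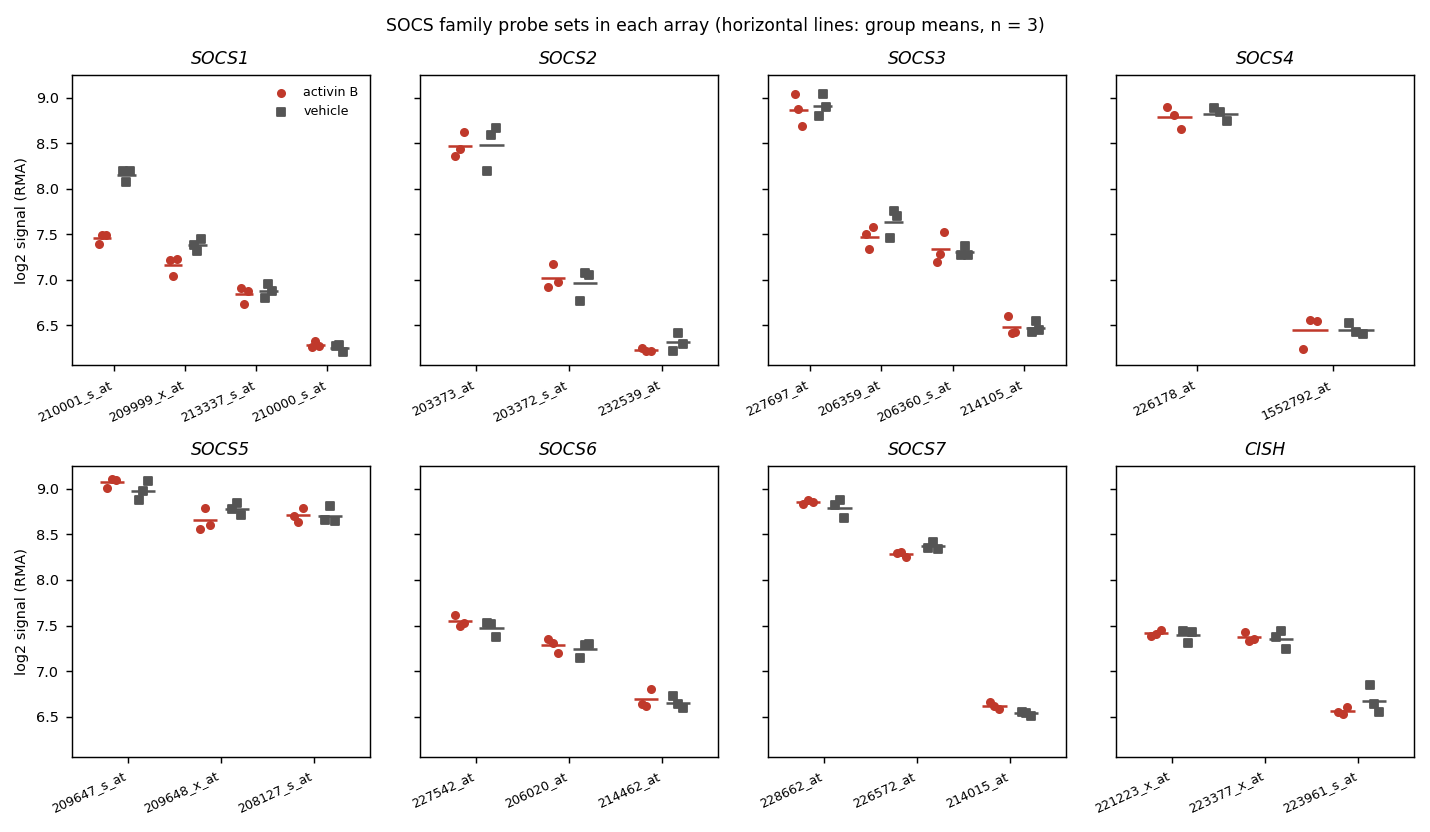
Log2 signal (RMA, vertical axis) of each of the 25 SOCS family probe sets in each array, 1 panel per gene. Red circles are activin B arrays, grey squares vehicle arrays and horizontal lines group means (n = 3); the groups stand well apart in SOCS1 210001_s_at, at 7.39 to 7.50 in activin B and 8.08 to 8.20 in vehicle.

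CISH, SOCS2 and SOCS3, the other classical feedback members, showed no such fall. CISH competes with STAT5 for docking sites on cytokine receptors. Its set with the highest signal, 221223_x_at, read 7.38, 7.41 and 7.45 in activin B, against 7.44, 7.31 and 7.42 in vehicle (log2 change 0.02 ± 0.06, SE). The groups overlapped in this set and in its other 2, whose log2 changes were 0.02 and -0.11. For CISH, both of the brighter sets are of the cross-hybridizing kind, and 223961_s_at is the one that is not. That set read 6.56, 6.53 and 6.61 in activin B, against 6.84, 6.64 and 6.55 in vehicle, with vehicle replicate 1 the highest.

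SOCS2 is a brake on growth hormone receptor signaling. Its set 203373_at read 8.36, 8.43 and 8.62 in activin B, against 8.19, 8.59 and 8.67 in vehicle, where replicate 1 was the lowest of all 6 arrays. The log2 change was -0.01 ± 0.11 (SE), the largest standard error in the family, and the other 2 sets changed by 0.06 and -0.08. A change of SOCS2 under this error could be missed. Replicate 1 was also the lowest of the activin B arrays in 203373_at. When the fit included the replicate number, the standard error of this set was 0.07, with the same log2 change.

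SOCS3, which restrains receptors of the interleukin-6 type, had 4 probe sets. Set 227697_at read 9.03, 8.87 and 8.68 in activin B, against 8.79, 9.03 and 8.89 in vehicle, and the groups overlapped, with the lowest value in activin B (log2 change -0.04 ± 0.09, SE). Set 206359_at had the most negative change outside SOCS1. It read 7.50, 7.34 and 7.58 in activin B, against 7.46, 7.75 and 7.70 in vehicle, with overlap of the groups (log2 change -0.17 ± 0.08, SE; 95% confidence interval -0.35 to 0.01). The remaining 2 sets changed by 0.03 and 0.01, so the 4 sets of SOCS3 were split evenly in sign.

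SOCS4 to SOCS7, which act mainly on receptor tyrosine kinases and the insulin pathway, had log2 changes on both sides of 0. SOCS4 and SOCS5 have been tied to the turnover of the EGF receptor. For SOCS4, 226178_at read 8.90, 8.81 and 8.66 in activin B, against 8.89, 8.84 and 8.74 in vehicle (log2 change -0.03 ± 0.07, SE). For SOCS5, 209647_s_at read 9.01, 9.11 and 9.10 in activin B, against 8.87, 8.97 and 9.09 in vehicle (log2 change 0.09 ± 0.07, SE). Its set 209648_x_at changed the other way by -0.13 ± 0.07 (SE), and the mean over the 3 SOCS5 sets changed by -0.01 ± 0.05 (SE).

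SOCS6 was the one gene whose sets, all 3 of them, lay above 0, by 0.04 to 0.07 on the log2 scale. SOCS6, which binds the KIT receptor and insulin receptor substrates, read 7.62, 7.50 and 7.52 by 227542_at in activin B, against 7.53, 7.52 and 7.38 in vehicle, and the groups overlapped. SOCS7 is an adaptor that also binds insulin receptor substrates, and 2 of its 3 sets separated the groups in opposite directions. Set 226572_at read 8.30, 8.31 and 8.25 in activin B, against 8.36, 8.42 and 8.34 in vehicle (log2 change -0.09 ± 0.06, SE). Set 214015_at read 6.66, 6.62 and 6.59 in activin B, against 6.56, 6.54 and 6.51 in vehicle (log2 change 0.08 ± 0.06, SE). Both differences were small, and the mean over the 3 SOCS7 sets changed by 0.02 ± 0.05 (SE).

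Over the whole family, 1 of 25 probe sets was called lower and 0 higher at an adjusted P under 0.05 (limma over all probe sets). Over all probe sets, 0.121% were called, 0.0476% lower and 0.0732% higher. Since the family was chosen for SOCS1, nothing is read from this count. At an unadjusted P under 0.05, 2 sets were lower, both of SOCS1, and 0 were higher, against 5.28% of all probe sets in either direction. The groups did not overlap in 4 sets, 3 with activin B below and 1 above, or 16% of the family, against 9.79% of all probe sets. These were SOCS1 210001_s_at and 209999_x_at, and SOCS7 226572_at and 214015_at. As SOCS1 was the ground for choosing the family, nothing is read from these counts either. The median log2 change was 0.0039 over the 25 sets and 0.01 over the 21 sets outside SOCS1, of which 12 were above 0 and 9 below. The 95% confidence intervals of these 21 sets lay between -0.35 and 0.25, so that changes beyond 1.27-fold lower or 1.19-fold higher fell outside the interval of every one of them. Smaller changes could be missed with 3 arrays per group, and 7 of the 25 sets had signals under the median of all probe sets.

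**Figure D2:**
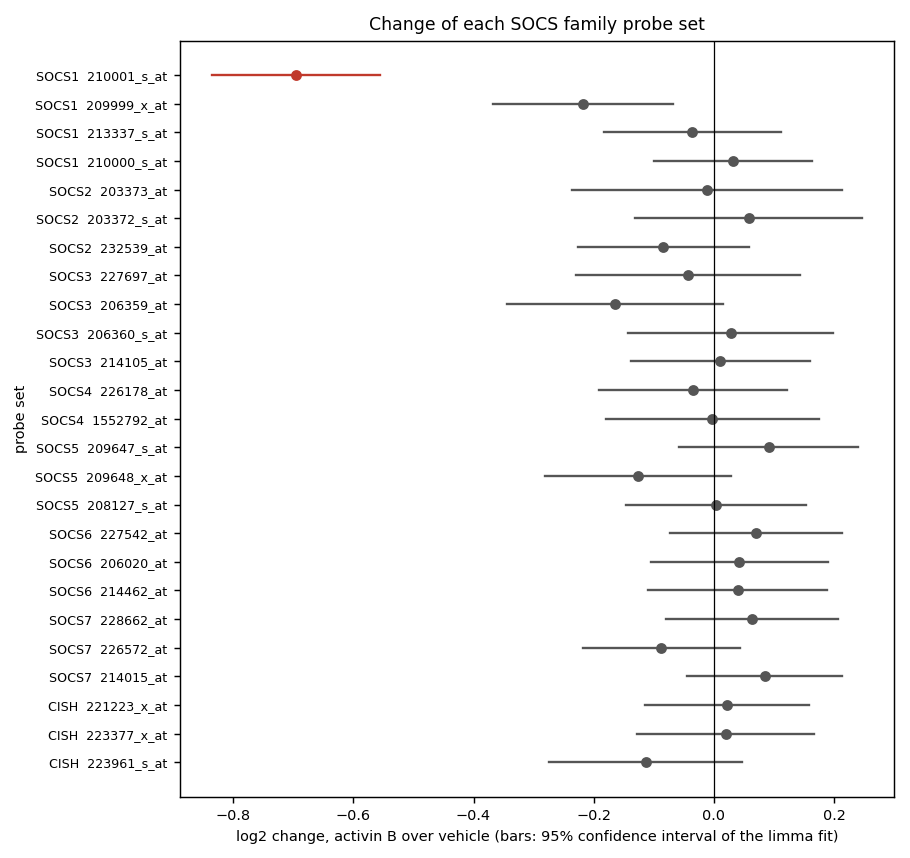
Log2 change, activin B over vehicle (horizontal axis), of each SOCS family probe set, with bars for the 95% confidence interval of the limma fit and the called set in red. SOCS1 210001_s_at lies at -0.70, SOCS1 209999_x_at at -0.22 and the 21 sets of the other genes between -0.17 and 0.09.

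The genes whose profile over the 6 arrays was most like that of SOCS1 were found by distance. Each probe set was centred on its own mean, and the root mean square difference from SOCS1 210001_s_at was taken over the 6 arrays in log2 units. The 5 closest genes were GJB2, a gap junction protein, KITLG, the ligand of the KIT receptor, SMAD1, a transducer of BMP signals, CLDN1, a tight junction protein, and VIPR1, a receptor for vasoactive intestinal peptide. Their distances were 0.073, 0.082, 0.087, 0.122 and 0.123. GJB2 read 8.24, 8.45 and 8.40 in activin B, against 8.92, 8.96 and 9.09 in vehicle. Like SOCS1, it was lowest in activin B replicate 1. KITLG read 8.64, 8.73 and 8.56 in activin B, against 9.24, 9.27 and 9.27 in vehicle. All 5 had log2 changes between -0.62 and -0.51, as closeness to a profile with this gap requires. Among the probe sets of SOCS1 itself, the pairwise distances ran from 0.093 to 0.369, whereas within the other 7 genes they ran from 0.057 to 0.206.

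**Figure D3:**
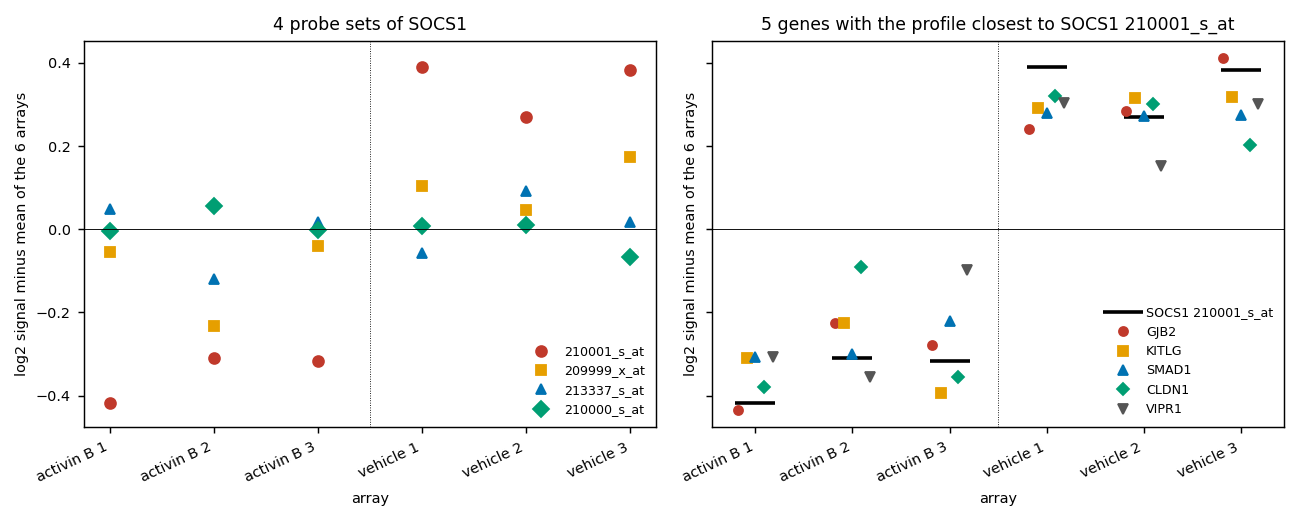
Log2 signal minus the mean of the 6 arrays (vertical axis) in each array (horizontal axis), for the 4 probe sets of SOCS1 on the left, and for SOCS1 210001_s_at (black bars) and the 5 genes with the closest profile on the right. The dotted line parts activin B from vehicle arrays; 210001_s_at shows the gap, 213337_s_at and 210000_s_at stay near 0, and the 5 genes lie close to the black bars.

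The rest of the JAK-STAT pathway was read from 9 lists holding 144 measured genes outside the family, with each gene read by the set that had its highest mean signal. In all, 2 of these genes fell, 0 rose and 142 did not pass (limma, adjusted over all probe sets), whereas 0.192% of 19775 genes were called, 0.091% falling and 0.101% rising. At an unadjusted P under 0.05, 8 were lower and 5 higher, 9.03% of the 144 genes against 5.89% of all genes. The median log2 change was -0.0025 over the 144 genes and -0.0017 over all genes.

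The signaling core showed no call. None of 4 JAK kinases and none of 5 STAT factors passed at an adjusted P under 0.05, nor at an unadjusted P under 0.05 (limma). JAK1, TYK2 and JAK2 changed by -0.05 ± 0.06, 0.04 ± 0.07 and 0.03 ± 0.07 on the log2 scale, and STAT5B, STAT6 and STAT5A by 0.09 ± 0.07, -0.09 ± 0.07 and 0.04 ± 0.06 (SE; smallest adjusted P = 0.995, limma). Of 32 cytokine receptor chains, 0 were called, and 3 were lower and 0 higher at an unadjusted P under 0.05. IL6R, the binding chain for interleukin-6, had 9.46, 9.39 and 9.45 in activin B, against 9.69, 9.64 and 9.71 in vehicle. Its groups did not overlap, but the log2 change of -0.25 ± 0.06 (SE) did not pass (limma, adjusted P = 0.331), and its other 2 sets changed by -0.12 and -0.14. CSF2RA, a chain of the GM-CSF receptor, and IL10RB, a chain shared by the interleukin-10 group, changed by -0.24 ± 0.06 and -0.15 ± 0.07 (SE; limma, adjusted P = 0.422 and 0.934). CSF2RA was read by a cross-hybridizing set, and its other 3 sets changed by -0.04 to 0.01.

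Among 20 cytokine ligands none passed, and 1 was higher and 1 lower at an unadjusted P under 0.05 (limma). IL11, an interleukin-6 type cytokine, read 7.96, 7.94 and 7.79 in activin B, against 7.53, 7.50 and 7.76 in vehicle. The groups did not overlap, with a log2 change of 0.30 ± 0.08 (SE; limma, adjusted P = 0.375), while its second set changed by 0.02. TSLP and IL15 changed by -0.25 ± 0.07 and -0.10 ± 0.07 (SE; limma, adjusted P = 0.563 and 0.989). None of 11 other brakes on the pathway, the phosphatases, PIAS proteins and adaptors, passed at an adjusted or at an unadjusted P under 0.05 (limma), and their median log2 change was 0.04. The 3 with the smallest P, CBL, PTPRC and PIAS2, changed by -0.12, 0.09 and -0.06. The 8 partners of the SOCS box, which build the ubiquitin ligase, had no call at either threshold and changes between -0.09 for CUL2 and 0.05 for UBE2F. ELOC (elongin C), which binds the SOCS box directly, changed by 0.04 ± 0.06 (SE).

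ASB2 fell among 23 other proteins with a SOCS box. ASB2, an ankyrin repeat protein that works as a ligase adaptor for filamins, read 7.15, 7.18 and 7.11 in activin B, against 7.53, 7.52 and 7.51 in vehicle. The groups stood apart by more than their whole spread, with a log2 change of -0.37 ± 0.06 (SE; limma, adjusted P = 0.0237). Its second set read 6.83, 6.82 and 6.88 in activin B, against 7.06, 7.02 and 7.14 in vehicle, lower too (log2 change -0.23 ± 0.06, SE) but not called. The call of ASB2 ended when any 1 of the 6 arrays was left out (limma, adjusted P = 0.0743 to 0.155), while the log2 change stayed between -0.39 and -0.35. ASB10, ASB6 and ASB3 changed by 0.23 ± 0.08, 0.16 ± 0.06 and -0.15 ± 0.07 (SE) and did not pass (limma, adjusted P = 0.837, 0.874 and 0.955). The other sets of ASB10 changed by -0.03 and 0.08.

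CEBPD fell among 29 genes known to be transcribed through STAT factors. CEBPD, a leucine zipper transcription factor and a known STAT3 target, read 10.03, 9.96 and 9.96 in activin B, against 10.49, 10.46 and 10.38 in vehicle. The groups did not overlap, and the log2 change was -0.46 ± 0.06 (SE; limma, adjusted P = 0.00500). Its second set changed by -0.17 ± 0.07 (SE) and was not called. The call ended without vehicle replicate 2 (limma, adjusted P = 0.0572) and held without any other array. JUNB, CXCL10 and GBP1 changed by 0.31 ± 0.07, -0.21 ± 0.07 and 0.12 ± 0.06 (SE; limma, adjusted P = 0.173, 0.741 and 0.959). The other sets of GBP1 changed by -0.06, -0.07 and 0.05. The 29 targets had a median of -0.0049, with 15 below 0, so the direction of CEBPD was not that of the list. Finally, none of 12 receptor kinases and substrates that SOCS proteins bind passed. FGFR3, PDGFRB and FLT3 changed by 0.26 ± 0.08, -0.17 ± 0.08 and 0.10 ± 0.08 (SE; limma, adjusted P = 0.571, 0.934 and 0.995), and 1 was higher and 1 lower at an unadjusted P under 0.05. The second set of FGFR3 changed by -0.03.

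**Figure D4:**
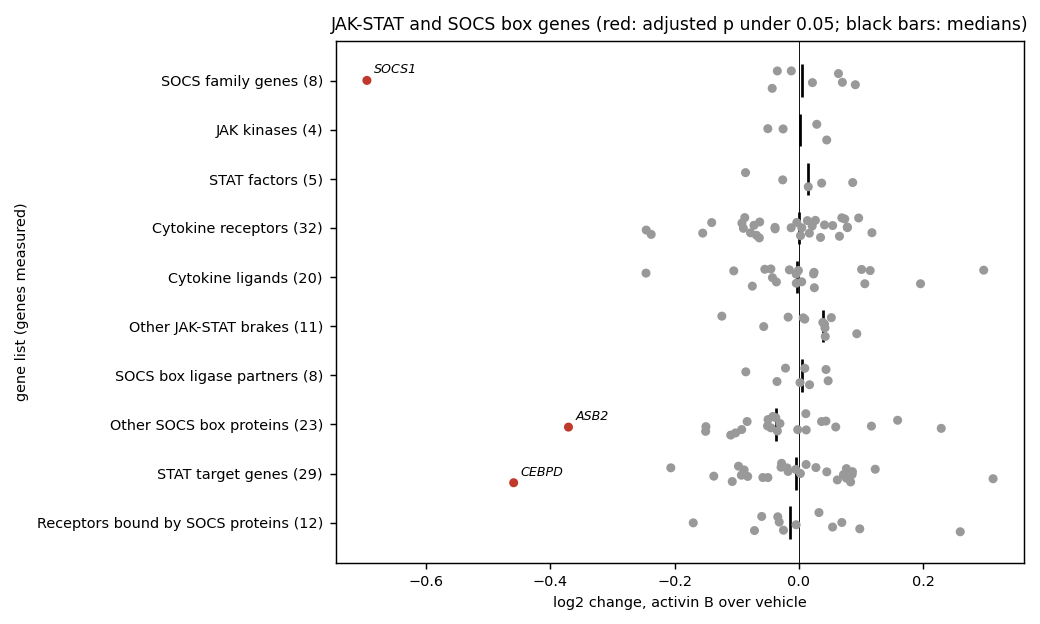
Log2 change, activin B over vehicle (horizontal axis), of the genes in each list (vertical axis, with the number of genes measured), 1 point per gene, red at an adjusted P under 0.05, with black bars for list medians. SOCS1, ASB2 and CEBPD are the 3 red points, at -0.70, -0.37 and -0.46, and all list medians lie near 0; the vertical scatter within a list has no meaning.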

How the data were processed

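Gene expression was measured on Affymetrix Human Genome U133 Plus 2.0 arrays from 50 ng of total RNA per sample. According to the study's methods, the authors ran robust multiarray averaging in Chipster on the array scans, and the deposited values are log2 signals per probe set. Equalizing the arrays removes shifts shared by most transcripts, and the method compresses differences near background. Groups and replicate numbers came from the sample titles. The scans and their dates were not analysed here.

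The 62 array controls were dropped and the other 54613 probe sets fitted with limma 3.58.1 in R 4.3.3 (linear model, empirical Bayes moderation), as the methods name, with Benjamini-Hochberg adjustment over all of them. Errors are standard errors of this fit. Symbols came from the platform annotation, checked by gene identifier against RefSeq (GRCh38.p14), which changed none. Of the list entries, 9 could not be matched to a probe set and were left out. Each list gene was read by the set with its highest mean signal. In each list, called genes and the 3 others with the smallest P were named, together with the 5 profiles nearest to SOCS1. The second probe sets of named genes were added after their values were seen. Members and lists were chosen with earlier results of these data known. The fit was tested on simulated arrays. The alternatives tried were a block for the replicate number, a filter on dim probe sets, other normalizations and priors, array weights, leaving out each array and averaging the probe sets of a gene. P values measure the spread between 3 cultures per group of 1 line, and the number of arrays limits the precision. Figures were drawn with matplotlib 3.10.9.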

Additional observations from a re-analysis of the deposited data

How the results depend on the processing

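SOCS1 210001_s_at stayed the 1 family set called, lower, in all 14 alternative fits, with log2 changes between -0.73 and -0.66. Its call ended when the 4 sets of SOCS1 were averaged (log2 change -0.23), since the other 3 changed less. No other family set was called in any fit. The family was chosen on SOCS1 in these same arrays, so these calls describe the processing only. The 2 falling list genes became 1 or, without vehicle replicate 2, 0 with 1 array left out and stayed 2 under the other alternatives, and 0 rose throughout. Over all probe sets, the 26 lower calls became 7 to 26 and the 40 higher calls 25 to 50 with 1 array left out, 7 and 25 of these without vehicle replicate 2, higher calls were 26 without activin B replicate 2, and lower calls were 13 and 12 without activin B replicates 1 and 2 and 10 and 12 without vehicle replicates 1 and 3. Among the list genes named above, averaging all sets of a gene turned the sign of 3, all uncalled: CBL (0.0035), UBE2F (-0.014) and ELOC (-0.021). Further list genes that were not named turned sign too, such as PTPN11 (0.042 to -0.036) and IL4 (-0.075 to 0.023). With 1 array left out, JAK2 ran between -0.052 and 0.071 and PIAS2 between -0.091 and 0.0092.

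With the replicate number as a block, 44 probe sets were lower and 53 higher, against 26 and 40 without it, and SOCS1 210001_s_at kept its call. Arrays with the same number correlated by 0.162, 0.041 and 0.192 in their deviations from the group means. As not every value passed 0.1, the numbers were not taken to pair the samples, although each array correlated best with its own number. No call of a named gene changed under the block. Low signals limit what the dim probe sets can show.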
